A study of Mus musculus with 18 samples.

Results

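The annexins are a family of proteins that bind membranes in the presence of calcium, and their transcripts were described here in mouse pancreatic ductal adenocarcinoma cells. Members were chosen by symbol, as the rows of the deposited count matrix named Anxa1, Anxa2, Anxa3, Anxa4, Anxa5, Anxa6, Anxa7, Anxa8, Anxa10 and Anxa11. All 10 were found among 24527 entries, and all 10 passed the filter on low counts that left 13827 genes for testing. Anxa10 passed through the ionomycin libraries and the line PD454, since it was near 0 elsewhere.

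The study asked how a calcium signal changes carcinoma cells, with TGFb as a second treatment. RNA was sequenced from 3 mouse tumour cell lines, PD454, PD7591 and PD883, each of a mixed strain background. In every line, cells were held for 48 h with ionomycin at 2.5 µM, with TGFb at 10 ng/ml or with DMSO, the solvent control. Ionomycin is a bacterial compound that lets calcium into the cytosol, and TGFb is a growth factor known for turning epithelial cells mesenchymal. There were 2 libraries in each of the 9 groups of treatment and line, which makes 18 libraries and 6 for each treatment. The medium shared by all groups held dexamethasone, a glucocorticoid, together with cholera toxin, insulin and bovine pituitary extract. The labels used here name no genotype for the lines, and each line stands for 1 tumour cell culture, so differences between lines rest on single lines. Nothing in the labels says that the libraries of a group came from separate cultures, so the p-values measure the spread between these libraries, which may be technical.

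An annexin has a conserved core that binds calcium and acidic phospholipids, mainly phosphatidylserine, and a variable N-terminal tail that binds partner proteins. When calcium rises in the cytosol, annexins move to membranes, where they take part in vesicle traffic, exocytosis, plugging of membrane wounds and shaping of the cell cortex. In epithelia several of them are abundant, and in pancreatic cancer annexin A2 at the cell surface is known for binding plasminogen and its activator.

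All 10 members are protein-coding genes in GENCODE vM21 (GRCm38, the assembly also called mm10). With the strand in parentheses, they include Anxa1 at chr19:20373428-20390944 (minus), Anxa2 at chr9:69453620-69491795 (plus), Anxa3 at chr5:96793339-96845966 (plus), Anxa4 at chr6:86736840-86793584 (minus), Anxa5 at chr3:36448923-36475894 (minus). The others are Anxa6 at chr11:54979108-55033445 (minus), Anxa7 at chr14:20455260-20480133 (minus), Anxa8 at chr14:34085981-34100571 (plus), Anxa10 at chr8:62057042-62123150 (minus) and Anxa11 at chr14:25842156-25886804 (plus). The sequence before the transcription start is shown for 2 members that hold a motif, Anxa10 and Anxa2, and for 2 that changed with TGFb, Anxa4 and Anxa5. Anxa2 itself was called in none of the 3 treatment comparisons. RefSeq (build GRCm38.p6) gave promoter windows, from 250 bases before to 50 bases after a start, for 8 of the 10 members, 10 windows in all. Anxa3 and Anxa6 had no entry. The letters TGANTCA, a binding motif of AP-1, a transcription factor that calcium signals can activate, were searched on both strands. They occurred in the windows of 2 members, Anxa10 and Anxa2, and in 7.81% of 32851 mouse promoters of the same length. In Anxa10 their first letters lay 180 and 16 bases before the start, and in Anxa2 they lay 95 bases before it. Each line gives the 250 bases before the start, 5′ to 3′ on the gene's own strand, with TGANTCA in capitals. Anxa10 (chr8:62123194-62123443, minus strand) and Anxa2 (chr9:69453433-69453682, plus strand) hold the letters. Anxa4 (chr6:86793585-86793834, minus strand) and Anxa5 (chr3:36475888-36476137, minus strand), shown as abundant members that fell and rose with TGFb, hold none.
Anxa10: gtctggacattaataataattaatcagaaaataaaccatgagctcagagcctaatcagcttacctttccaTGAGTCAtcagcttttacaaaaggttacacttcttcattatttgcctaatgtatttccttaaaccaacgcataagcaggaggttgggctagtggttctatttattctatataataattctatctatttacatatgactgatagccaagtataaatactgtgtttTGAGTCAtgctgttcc
Anxa2: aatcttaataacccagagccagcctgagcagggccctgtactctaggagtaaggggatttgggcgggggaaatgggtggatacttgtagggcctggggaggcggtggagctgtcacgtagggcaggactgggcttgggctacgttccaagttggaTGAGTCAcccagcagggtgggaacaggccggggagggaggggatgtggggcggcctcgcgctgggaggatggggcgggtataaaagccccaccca
Anxa4: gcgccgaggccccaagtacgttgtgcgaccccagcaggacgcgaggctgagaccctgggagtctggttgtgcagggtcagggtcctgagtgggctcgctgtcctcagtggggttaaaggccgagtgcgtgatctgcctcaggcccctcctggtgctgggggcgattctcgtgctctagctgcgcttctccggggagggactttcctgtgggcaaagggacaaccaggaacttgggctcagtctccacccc
Anxa5: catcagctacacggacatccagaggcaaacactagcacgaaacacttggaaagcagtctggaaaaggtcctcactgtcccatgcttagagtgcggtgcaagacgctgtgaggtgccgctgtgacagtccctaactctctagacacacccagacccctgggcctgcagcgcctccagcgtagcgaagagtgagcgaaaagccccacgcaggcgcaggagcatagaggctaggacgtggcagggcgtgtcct
The ATF4 motif TGATGNAA and the SMAD motif GTCTAGAC occurred in the windows of 0 members, and in 3.97% and 0.213% of all promoters. These motifs were picked after the values were known. A match of letters is a description of the sequence and says nothing about binding in these cells.

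The libraries held 17591005 to 37894692 counts. Levels are given as CPM, which are counts relative to library size after TMM scaling, and a level of a treatment is the mean ± SD of the 3 line means. All 9 ductal and epithelial markers were detected, with summed levels of 5395 to 9703 CPM in ionomycin libraries, 3994 to 7053 CPM in TGFb libraries and 4907 to 7709 CPM in DMSO libraries. Of those 9 markers 4 were lower and 3 higher with TGFb than with DMSO, against 26.5% lower and 24.3% higher of all tested genes. Krt19 (log2 difference −5.86), Muc1 (−3.94), Cdh1 (−3.34) and Epcam (−1.07) were lower (adjusted p 8.98e-10, 9.06e-09, 3.15e-08 and 0.000241). Sox9 (2.40) and Krt18 (0.29) were higher (adjusted p 8.57e-06 and 0.0377). Cldn4 was also called higher (9.26), with line means of 24.8 to 95.4 CPM with TGFb. Its line means were 0.0227 to 0.162 CPM with DMSO and 0.324 to 0.558 CPM with ionomycin. Cldn4 thus passed the filter on low counts through groups where it was higher, and its test is not used. Epcam was low throughout, at 0.831 to 4.21 CPM in the means of the 9 groups. The acinar markers Cpa1, Cela2a and Pnlip and the endocrine markers Ins1, Ins2 and Sst were at 0 in every library. The 6 acinar markers summed to 0.0538 to 1.10 CPM with ionomycin, 2.19 to 6.18 CPM with TGFb and 0.0872 to 1.44 CPM with DMSO. Cela1, the only acinar marker tested, had line means of 2.15 to 4.67 CPM with TGFb. Its line means with DMSO were 1.17 CPM in PD454, 0.102 CPM in PD7591 and 0.285 CPM in PD883. It was called higher with TGFb (3.19), but with DMSO it was near 0 outside PD454, so its test is not used. The 5 fibroblast markers summed to 1.36 to 3.66 CPM with ionomycin, 6.71 to 101 CPM with TGFb and 1.76 to 5.76 CPM with DMSO, and the 6 immune markers to 9.01 to 29.4, 3.14 to 3.75 and 3.31 to 5.93 CPM. The 5 endothelial markers summed to 0.423 to 3.49 CPM with ionomycin, 0.139 to 1.20 CPM with TGFb and 0.182 to 0.960 CPM with DMSO. Ribosomal Rn45s took 0.304% to 4.11% of the counts with ionomycin, 0.256% to 1.04% with TGFb and 0.283% to 2.26% with DMSO. Their part in the annexin differences was not tested. In 4 libraries short transcripts took more of the counts than in the others: library 18 of TGFb in PD454, library 12 of TGFb in PD883, library 14 of DMSO in PD454 and library 8 of DMSO in PD883. Their log2 deviations correlated with log2 transcript length at −0.112, −0.206, −0.214 and −0.215 across genes, and results that change without them are given both ways.

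With DMSO, Anxa2 was the most abundant annexin transcript for its length and Anxa10 the least. Per kilobase of exon, Anxa2, the annexin that pairs with S100a10, had 533 to 1159 CPM per kb in the 6 DMSO libraries (median 952). Anxa4, an annexin of the apical side of ductal epithelia, followed with 351 to 526 CPM per kb (median 473). Then came Anxa5 (median 315), Anxa3 (median 223), Anxa1 (median 197), Anxa8 (median 99.0), Anxa6 (median 49.8), Anxa11 (median 27.0) and Anxa7 (median 24.4), all in CPM per kb. Anxa10 had 0.0958 to 3.15 CPM per kb (median 0.326). The ranges of neighbours in this order did not overlap between Anxa2 and Anxa4 or between Anxa7 and Anxa10. All other neighbours overlapped, although Anxa5 stood above Anxa3, and Anxa1 above Anxa8, in each of the 6 libraries. In unscaled terms, the 10 annexins together took 0.465% to 0.566% of all counts with ionomycin, 0.327% to 0.420% with TGFb and 0.341% to 0.561% with DMSO.

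**Figure D1:**
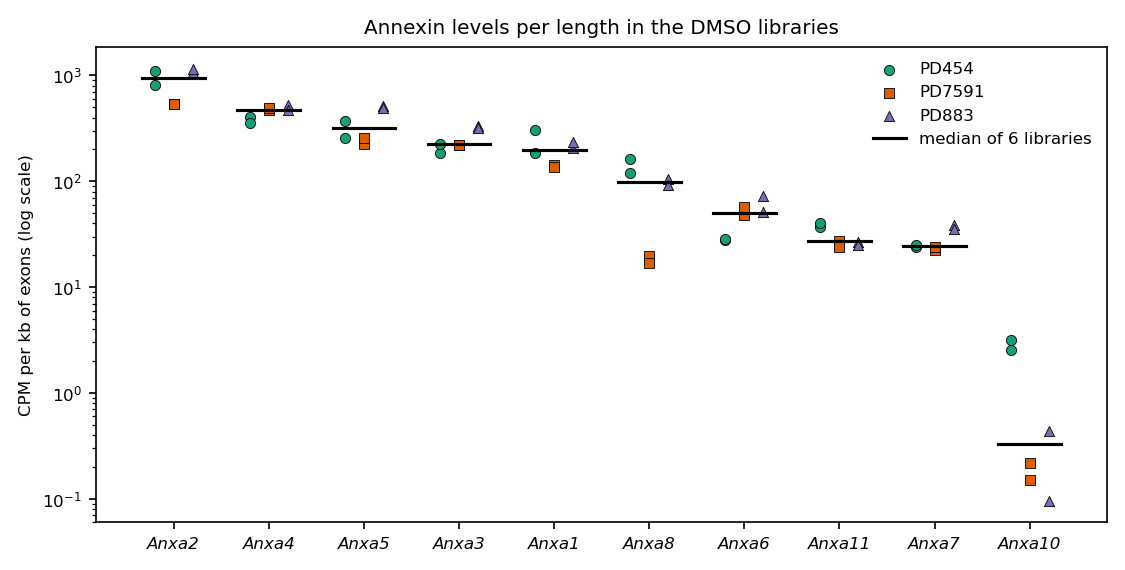
Annexin levels for transcript length in the 6 DMSO libraries, in CPM per kilobase of exon on a log axis, with a symbol for each line and a bar at the median of the libraries. Anxa2 (median 952) stands above all others, and Anxa10 (median 0.326) below all others.

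Over the 3 lines, 5 of the 10 annexins were called higher with ionomycin: Anxa10, Anxa8, Anxa11, Anxa1 and Anxa7. The fitted differences ran from 9.13-fold for Anxa10 to 1.41-fold for Anxa7, and 0 members were called lower. Anxa10 is among the 5, but its test over the 3 lines is not used, as described below. A gene was called when its adjusted p in edgeR's quasi-likelihood F test with line as a term was under 0.05. Of all tested genes, 33.3% were called in this comparison, 17.2% higher and 16.1% lower. The median log2 difference of the 10 annexins was 0.42, against −0.03 over all tested genes. Anxa5 and Anxa6 lay below DMSO at unadjusted p-values of 0.0410 and 0.0186, which did not pass after adjustment.

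Anxa10, a member whose core has lost most of its calcium-binding sites and which is best known from gastric epithelium, changed most. It had 455 and 426 counts with ionomycin in PD454, against 83 and 187 counts with DMSO. In PD7591 it had 101 and 73 counts with ionomycin, against 5 and 9 with DMSO. In PD883 it had 151 and 250 counts with ionomycin, against 3 and 17 with DMSO. The ionomycin libraries were above the DMSO libraries of their own line in all 3 lines, but DMSO in PD454 overlapped ionomycin in PD7591. Over the lines Anxa10 averaged 12.4 ± 9.52 CPM with ionomycin and 1.96 ± 2.71 CPM with DMSO (SD, n = 3 lines). The fitted log2 difference was 3.19 ± 0.36 (SE). This fit takes in the DMSO libraries of PD7591 and PD883, where Anxa10 had 3 to 17 counts, so its test is not used. Within PD454, where both treatments held more counts, the log2 difference was 2.16 ± 0.38 (SE, adjusted p = 0.00141). From the summed counts, the ratio of ionomycin to DMSO was 4.33 in PD454 (exact 95% interval 3.77 to 4.98), 13.002 in PD7591 (7.54 to 24.3) and 19.5 in PD883 (12.5 to 32.3). These intervals cover counting error only, not the spread between libraries, so they are no test of the difference.

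Anxa8, found in epidermis and other epithelia, had 455 and 441 CPM with ionomycin in PD454, against 226 and 305 CPM with DMSO. In PD7591 it had 294 and 285 CPM with ionomycin, against 37.4 and 31.7 CPM with DMSO. In PD883 it had 322 and 385 CPM with ionomycin, against 197 and 175 CPM with DMSO. Ionomycin libraries were thus higher in each line, and PD7591 differed from the other lines in its low DMSO level rather than in a high ionomycin level. The log2 difference over lines was 1.61 ± 0.28 (SE, adjusted p = 0.000325). Without PD7591 it was 0.86 (adjusted p = 0.000644). The call was lost in 2 of 14 other settings of the processing, among them the fit without a line term (1.17, adjusted p = 0.116).

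Anxa11 and Anxa7 carry the long N-terminal tails of the family, and annexin A11 is known for linking RNA granules and vesicles. Anxa11 had 183 and 220.2 CPM with ionomycin in PD454, against 100.2 and 109 CPM with DMSO. In PD7591 it had 192 and 168 CPM with ionomycin, against 74.1 and 65.1 CPM with DMSO, and in PD883 88.7 and 109.6 CPM with ionomycin, against 73.0 and 68.4 CPM with DMSO. The log2 difference was 0.95 ± 0.13 (SE, adjusted p = 2.70e-05). The pairs did not overlap in any of the 3 lines, as in Anxa10 and Anxa8, but this also held for Anxa6, which was not called. How often it held over all tested genes was not counted. Over all lines the Anxa11 libraries did overlap, where ionomycin and DMSO libraries did not overlap in 7.23% of all tested genes. The gene overlaps an annotated antisense transcript, Anxa11os, and whether counting used strand is not given in the sources, so reads of the pair cannot be told apart. Anxa7 averaged 121 ± 32.6 CPM with ionomycin and 85.6 ± 23.8 CPM with DMSO (SD, n = 3 lines). Its log2 difference was small but even, 0.50 ± 0.08 over lines (SE, adjusted p = 0.000174) and 0.48, 0.53 and 0.49 in PD454, PD7591 and PD883. Without a line term it was not called (adjusted p = 0.0678).

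Anxa1, a glucocorticoid-inducible annexin that restrains phospholipase A2 and whose N-terminus signals through formyl peptide receptors, had 499 to 822 CPM with ionomycin (median 702) and 259 to 582 CPM with DMSO (median 373). A single DMSO library, number 14 of PD454 at 582 CPM, reached into the ionomycin range. The log2 difference was 0.87 ± 0.18 (SE, adjusted p = 0.00104), and the call was lost without PD7591 (0.59, adjusted p = 0.0512).

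The other 5 members were not called. A fit with a mean for each of the 9 groups called 4 of them (Anxa2, Anxa3, Anxa5 and Anxa6), and 41.1% of all genes. Anxa2 averaged 1508 ± 183 CPM with ionomycin and 1259 ± 438 CPM with DMSO, and Anxa3, an annexin of vesicle traffic, 854 ± 274 and 659 ± 175 CPM (SD, n = 3 lines). Their log2 differences were 0.31 ± 0.13 and 0.35 ± 0.15 (SE, adjusted p 0.0668 and 0.0734). Both passed without the 4 short-transcript libraries, at 0.46 and 0.44 (adjusted p 0.0123 and 0.0372). Anxa4 averaged 1034 ± 200.1 CPM with ionomycin and 955 ± 142 CPM with DMSO, a log2 difference of 0.11 (approximate 95% interval −0.11 to 0.33, adjusted p = 0.474). Anxa5, which binds exposed phosphatidylserine and is used as a probe of dying cells, averaged 471 ± 41.4 CPM with ionomycin and 611 ± 233 CPM with DMSO (−0.33 ± 0.15, adjusted p = 0.0979). Anxa6, a large annexin with a tandem core that links membranes to the actin cortex, averaged 85.9 ± 13.5 CPM with ionomycin and 119 ± 43.4 CPM with DMSO (−0.39 ± 0.15, adjusted p = 0.0545). Both lower values came mainly from PD883, where Anxa5 and Anxa6 fell by 0.81 and 0.93 on the log2 scale (adjusted p 0.00764 and 0.00219). The PD883 call of Anxa5 was lost without library 10 of ionomycin (−0.64, adjusted p = 0.0765).

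**Figure D2:**
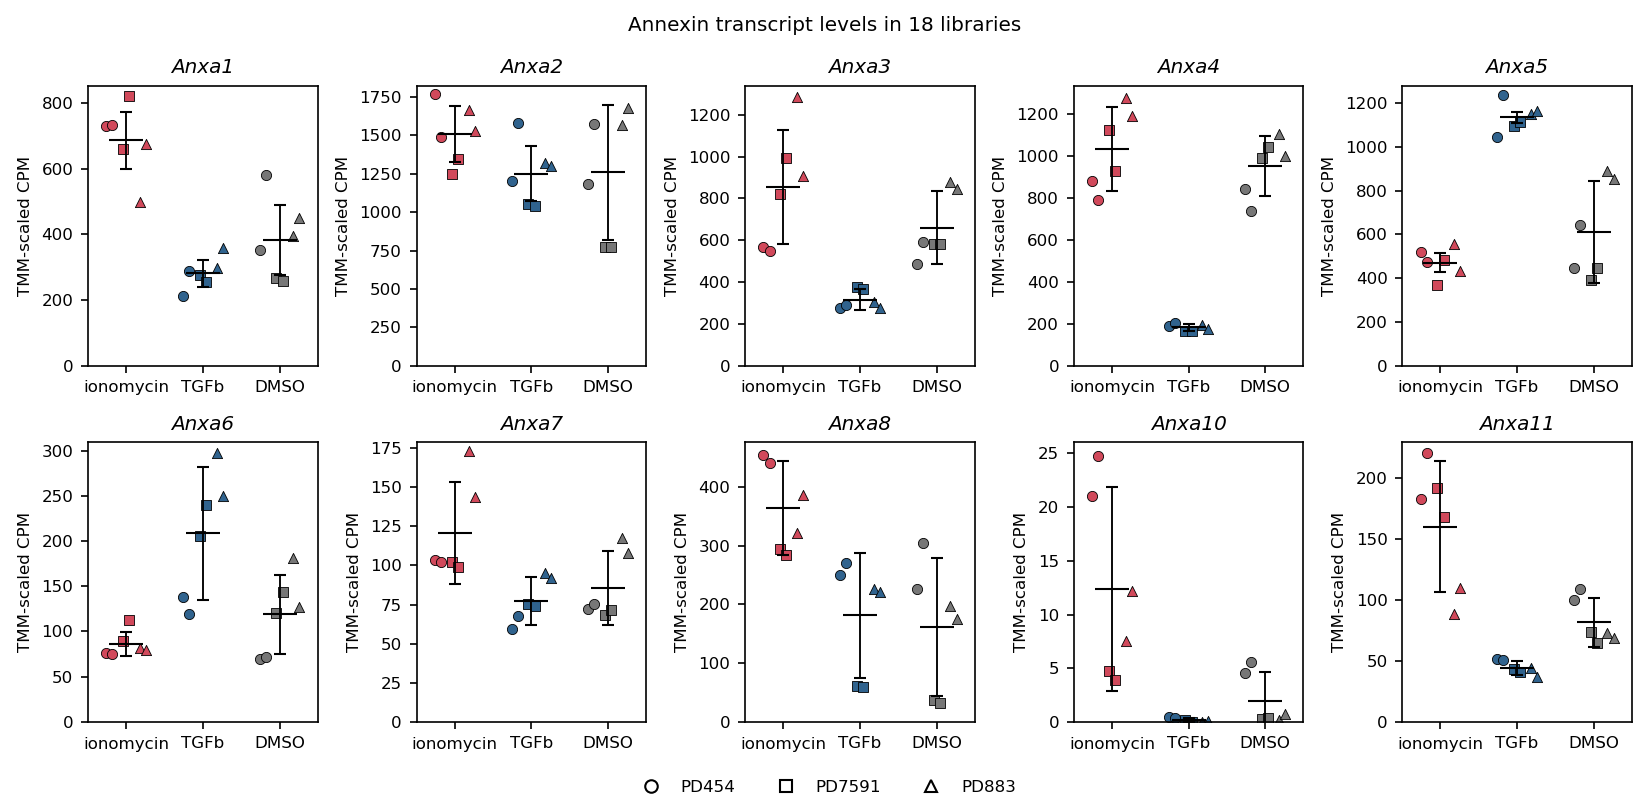
TMM-scaled CPM of the 10 annexins in all 18 libraries, by treatment and with a symbol for each line. Horizontal bars give the mean of the 3 line means and error bars its SD. Anxa4 lies between 164 and 206 CPM in the TGFb libraries and at or above 740.1 CPM in all others, while Anxa5 is highest in the TGFb libraries.

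With TGFb, Anxa4, Anxa10, Anxa3, Anxa11 and Anxa1 were called lower and Anxa5 and Anxa6 higher. Of the 10 members 7 were thus called, against 50.7% of all tested genes, 24.3% higher and 26.5% lower. Anxa10 is among the 7, but its test is not used, as described below. Anxa1 is also among them, with a call that was lost in 14 of the 18 fits that left out a single library. The median log2 difference of the annexins was −0.28, against −0.00 over all tested genes. In RNA of a whole culture, fewer cells of a type and less RNA per cell cannot be told apart.

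Anxa4 had the smallest p of the family. It had 190.1 and 206 CPM with TGFb in PD454, against 844 and 740.1 CPM with DMSO. In PD7591 it had 164 and 167 CPM with TGFb, against 991 and 1047 CPM with DMSO. In PD883 it had 196 and 176 CPM with TGFb, against 1107 and 1002 CPM with DMSO. The groups were far apart, with no overlap in any line or over all lines. The log2 difference was −2.37 ± 0.12 (SE, adjusted p = 1.54e-11), a 5.16-fold lower level.

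Anxa10 was close to absent with TGFb: the 6 libraries held 22 counts in all, against 304 counts with DMSO. With TGFb it had 9 and 7 counts in PD454, 3 and 0 in PD7591 and 0 and 3 in PD883, while the DMSO counts of these lines are given above. The fitted log2 difference was −3.27 ± 0.50 (SE). Anxa10 reached 10 counts in 0 TGFb libraries. It thus passed the filter on low counts through groups where it was higher, and its test is not used. From the summed counts, the ratio of TGFb to DMSO was 0.0752 in PD454 (exact 95% interval 0.0423 to 0.124), 0.229 in PD7591 (0.0422 to 0.820) and 0.0970 in PD883 (0.0185 to 0.327). Outside PD454 the DMSO level was itself 3 to 17 counts a library, which limits the precision. The intervals again leave out the spread between libraries, so they are no test of the difference.

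Anxa3 averaged 316 ± 49.9 CPM with TGFb and 659 ± 175 CPM with DMSO (SD, n = 3 lines), and its libraries did not overlap (277 to 378 CPM with TGFb, 484 to 876 CPM with DMSO). Its log2 difference was −1.03 ± 0.15 (SE, adjusted p = 1.18e-05). Anxa11 had 36.5 to 51.2 CPM with TGFb (median 43.7) and 65.1 to 109 CPM with DMSO (median 73.6), again with no overlap, and a log2 difference of −0.86 ± 0.13 (SE, adjusted p = 2.16e-05). Anxa1 averaged 282 ± 41.0 CPM with TGFb and 384 ± 106 CPM with DMSO, a log2 difference of −0.43 ± 0.17 (SE, adjusted p = 0.0491). That call was lost in 14 of the 18 fits that left out a single library, with adjusted p from 0.0537 to 0.163. It held without library 9 of ionomycin in PD883, library 12 of TGFb in PD883 or either DMSO library of PD7591, and the value was −0.26 without library 14 of DMSO in PD454 (adjusted p = 0.163). The Anxa1 call was also lost in 8 of 14 other settings. Among these, the value was −0.27 without the 4 short-transcript libraries (adjusted p = 0.207) and −0.20 without PD454 (adjusted p = 0.393).

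Anxa5 had 1046 and 1235 CPM with TGFb in PD454, against 447 and 644 CPM with DMSO. In PD7591 it had 1097 and 1114 CPM with TGFb, against 390.3 and 444 CPM with DMSO, and in PD883 1152 and 1162 CPM with TGFb, against 888 and 851 CPM with DMSO. All TGFb libraries were above all DMSO libraries. Over all tested genes, TGFb and DMSO libraries did not overlap in 17.6%. In Anxa5 the TGFb level was alike in the 3 lines (1134 ± 26.2 CPM) where the DMSO level was not (611 ± 233 CPM, SD, n = 3 lines). The log2 difference was 0.95 ± 0.15 (SE, adjusted p = 3.75e-05). Anxa6 averaged 208 ± 73.6 CPM with TGFb and 119 ± 43.4 CPM with DMSO, a log2 difference of 0.82 ± 0.15 (SE, adjusted p = 0.000157). The lines overlapped in Anxa6, since TGFb in PD454 gave 138 and 119 CPM, but within each line the TGFb libraries were higher. The share of all tested genes without overlap within each line was not counted.

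Anxa2, Anxa7 and Anxa8 were not called with TGFb. Anxa2 averaged 1251 ± 180.5 CPM with TGFb and 1259 ± 438 CPM with DMSO (log2 difference 0.04, approximate 95% interval −0.21 to 0.28, adjusted p = 0.830). Anxa7 differed by −0.13 (−0.29 to 0.03, adjusted p = 0.204). Anxa8 differed by 0.27 (−0.25 to 0.80, adjusted p = 0.412), with the widest interval of the 3.

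**Figure D3:**
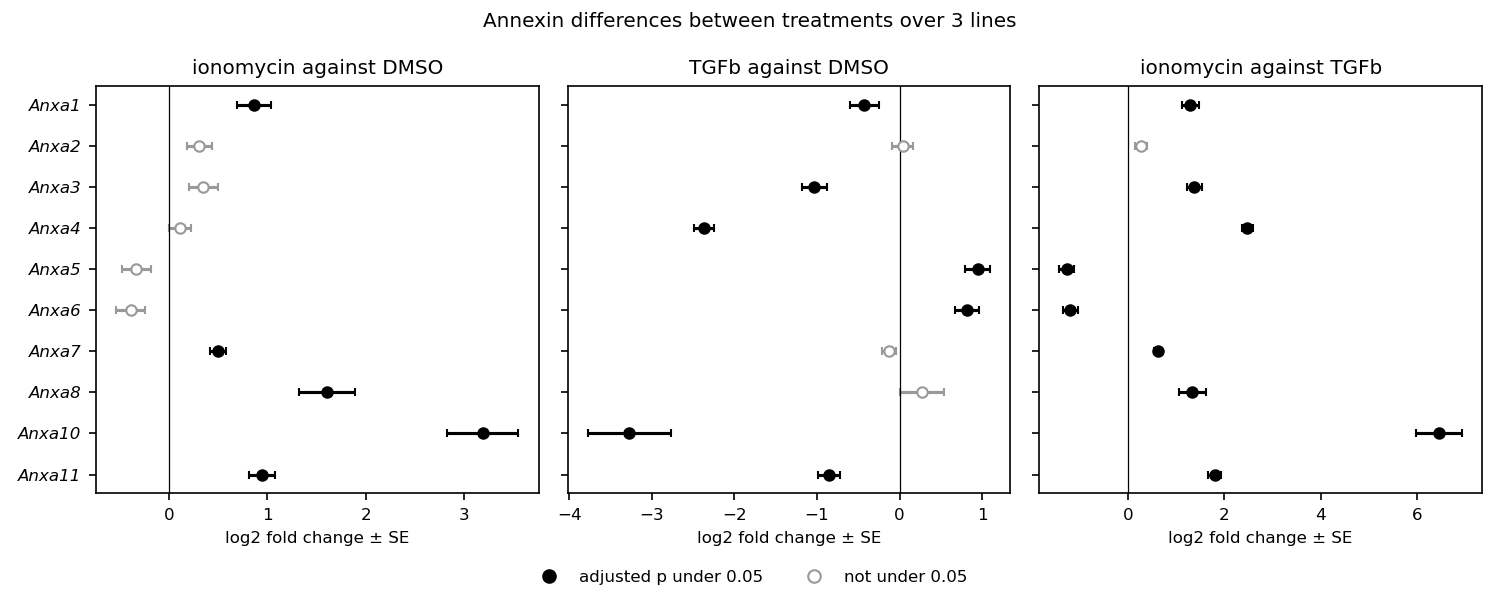
Log2 differences ± SE of the 10 annexins over the 3 lines, for ionomycin against DMSO, TGFb against DMSO and ionomycin against TGFb. Filled points have an adjusted p under 0.05, but the tests of Anxa10 shown here are not used. With TGFb, Anxa4 (−2.37) and Anxa10 (−3.27) are lowest and Anxa5 (0.95) highest, and with ionomycin Anxa10 (3.19) and Anxa8 (1.61) are highest.

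Set directly against each other, ionomycin and TGFb gave different levels of 9 of the 10 annexins. Ionomycin libraries were higher in 7 members and lower in Anxa5 and Anxa6. Of all tested genes, 62.9% were called in this comparison, 31.0% higher and 31.9% lower with ionomycin. Anxa10 showed the greatest fitted log2 difference, 6.46 ± 0.47 (SE), from 1456 counts with ionomycin and 22 with TGFb. Its test is not used, for the reason given above. Anxa4 averaged 1034 ± 200.1 CPM with ionomycin and 183 ± 16.6 CPM with TGFb, a log2 difference of 2.48 ± 0.12 (SE, adjusted p = 5.65e-12). Anxa11 differed by 1.80, Anxa3 by 1.38, Anxa8 by 1.33, Anxa1 by 1.29 and Anxa7 by 0.63 (adjusted p 1.53e-09, 2.59e-07, 0.000434, 4.78e-06 and 3.07e-06). Of these, the Anxa8 call was lost in 1 of 14 other settings. Anxa5 differed by −1.27 and Anxa6 by −1.20 (adjusted p 7.81e-07 and 1.68e-06). In these 9 members no ionomycin library overlapped any TGFb library, which held for 27.0% of all tested genes. Anxa2 was at 1249.7 to 1772 CPM with ionomycin and 1043 to 1584 CPM with TGFb, which overlapped (0.27 ± 0.13, adjusted p = 0.0662). The summed annexin level was 4903 to 5957 CPM with ionomycin (median 5274), 3356 to 4110 CPM with TGFb (median 3655) and 3302 to 5404 CPM with DMSO (median 4241).

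The lines shared the sign of the ionomycin difference in 7 members, all of them positive, and were mixed in 3. They shared that of the TGFb difference in 6 members, 2 positive and 4 negative, and were mixed in 4. How often the lines shared a sign over all tested genes was not counted. Tested within single lines against DMSO, ionomycin gave calls in 4 annexins in PD454 (21.0% of all genes, 11.7% higher and 9.34% lower), 7 in PD7591 (18.6%, 11.2% and 7.41%) and 6 in PD883 (22.5%, 11.6% and 10.9%). TGFb gave calls in 7 annexins in PD454 (31.0% of all genes, 14.8% higher and 16.1% lower), 6 in PD7591 (37.8%, 17.7% and 20.1%) and 5 in PD883 (38.4%, 18.4% and 20.0%). Anxa7, Anxa8, Anxa10 and Anxa11 were called higher with ionomycin in each line. Of these, Anxa10 had 3 to 17 counts with DMSO in PD7591 and PD883, where its tests are not used for the reason given above. The TGFb calls in PD454 and PD883 also include Anxa10, whose TGFb tests are not used. Anxa3, Anxa4 and Anxa11 were called lower with TGFb in each line, and Anxa6 higher. The share of all tested genes called in each of the 3 lines was not counted, so these lists describe the members alone. The PD7591 count with ionomycin was 4 when either DMSO library of that line was left out, as Anxa2, Anxa3 and Anxa7 then missed the threshold. Anxa7 also missed it in PD454 without either ionomycin library or library 14 of DMSO, in PD883 without library 9 of ionomycin or library 8 of DMSO, and in PD7591 without library 3 of ionomycin (adjusted p 0.0525 to 0.0946). In PD883 Anxa11 missed it without library 10 of ionomycin or either DMSO library (adjusted p 0.0683 to 0.215). The TGFb call of Anxa3 in PD7591 was lost without either TGFb library or library 2 of DMSO (adjusted p 0.0501 to 0.0686).

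A joint test of whether a treatment acted alike in the 3 lines called 1 annexin for ionomycin, against 2.59% of all genes. It was Anxa8, whose log2 difference was 0.76 ± 0.15 in PD454, 3.07 ± 0.17 in PD7591 and 0.93 ± 0.15 in PD883 (SE, adjusted p of the joint test = 0.000451). At an unadjusted p under 0.05 there were 7 (Anxa1, Anxa2, Anxa5, Anxa6, Anxa8, Anxa10 and Anxa11), against 20.3% of all genes. DESeq2 called 6 annexins in this test, among 1284 genes, and edgeR 4 with no filter on low counts, among 1050 genes. The reported fit called 358 genes. For TGFb 0 members were called in the reported fit, against 5.26% of all genes. At an unadjusted p under 0.05 there were 6 (Anxa1, Anxa2, Anxa3, Anxa4, Anxa5 and Anxa8), against 21.0% of all genes. DESeq2 called 5, among 1486 genes, and edgeR 3 with no filter on low counts, among 1391 genes. The reported fit called 727 genes. The TGFb difference of Anxa1 was −0.90 ± 0.23 in PD454, 0.02 ± 0.23 in PD7591 and −0.36 ± 0.23 in PD883, for which the adjusted p of the joint test was 0.216. The PD454 value was −0.47 without library 14 of DMSO (adjusted p = 0.144) and −0.68 without library 17 of TGFb (adjusted p = 0.0958). Anxa10 with TGFb in PD883 was −3.21 ± 0.92 (SE) and −1.70 without library 8 of DMSO, and its test is not used.

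**Figure D4:**
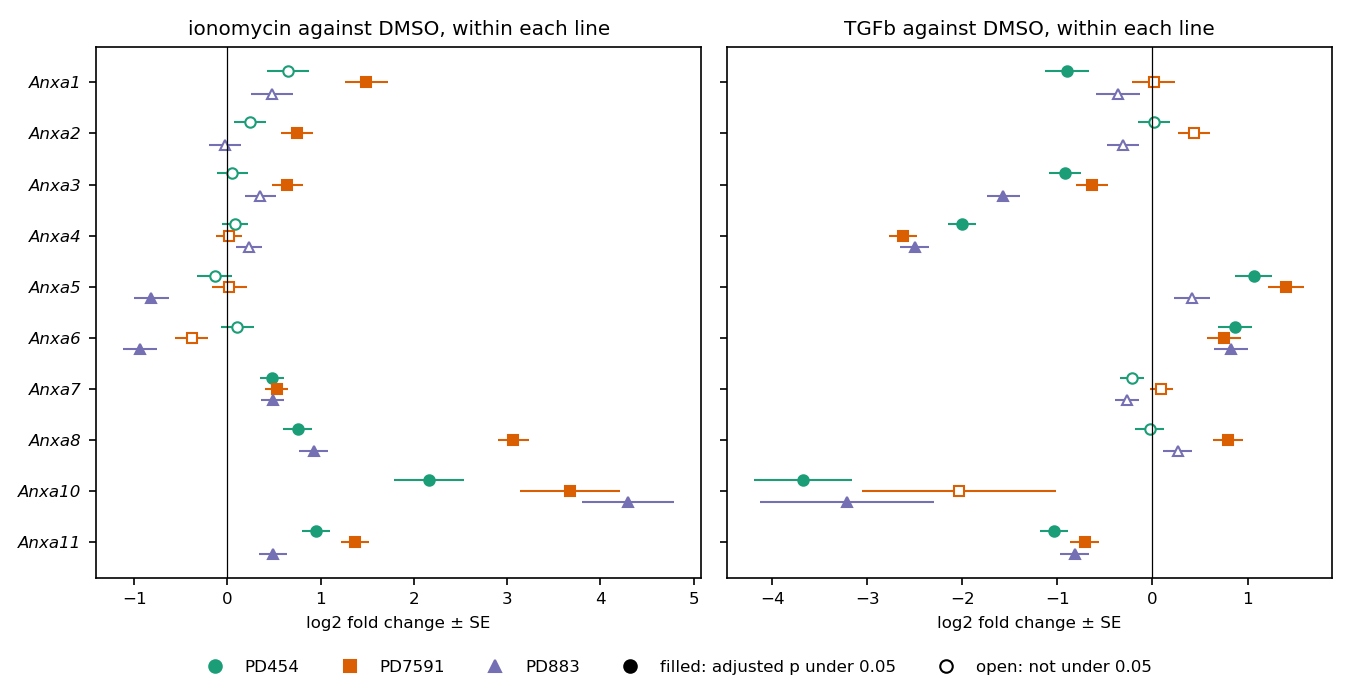
Log2 differences ± SE against DMSO within each line for ionomycin and TGFb, with a colour and symbol for each line and filled symbols for an adjusted p under 0.05. The Anxa10 tests with TGFb, and with ionomycin in PD7591 and PD883, are not used. Anxa8 with ionomycin stands apart in PD7591 (3.07, against 0.76 in PD454 and 0.93 in PD883), while Anxa4 with TGFb is at or below −2.00 in all lines.

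The lines also differed at baseline. In their DMSO libraries 6 annexins were called between PD454 and PD7591, where 21.5% of all genes were called, 11.6% higher and 9.97% lower in PD454. Between PD454 and PD883 there were 8 (35.3% of all genes, 17.4% higher and 17.9% lower in PD454). Between PD7591 and PD883 there were 6 (34.0% of all genes, 15.7% higher and 18.4% lower in PD7591). Anxa8 was 2.94 ± 0.17 higher on the log2 scale in PD454 than in PD7591 (SE, adjusted p = 2.86e-08), and it fell by 2.43 in PD7591 relative to PD883 (adjusted p = 1.65e-07). Anxa10 was 3.91 ± 0.53 higher in PD454 than in PD7591 and 3.35 ± 0.50 higher than in PD883 (SE). Both are among the calls counted here, but DMSO libraries of PD7591 and PD883 held 3 to 17 counts, so these tests are not used. Anxa6 ran the other way, with 69.7 and 71.2 CPM in PD454, against 121 and 143 CPM in PD7591 and 181 and 127 CPM in PD883 (log2 differences −0.90 and −1.13, adjusted p 0.00242 and 0.000361). Anxa2 was lowest in PD7591, with 772 and 776 CPM, below 1185 to 1677 CPM in the other lines.

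Anxa9 and Anxa13, the other annexins in the table, were low. Anxa13, an intestinal epithelial annexin, averaged 7.41 ± 4.94 CPM with ionomycin, 1.77 ± 1.61 CPM with TGFb and 18.5 ± 12.4 CPM with DMSO (SD, n = 3 lines). It fell by 1.38 with ionomycin and by 3.46 with TGFb on the log2 scale (adjusted p 0.000131 and 1.90e-09). Anxa9 was at 3.00 to 8.72 CPM and fell by 0.76 with TGFb (adjusted p = 0.000415), while with ionomycin it differed by −0.28 (adjusted p = 0.165).

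Of the S100 proteins that bind annexin tails, 5 were tested. S100a10, the partner that joins annexin A2 in a heterotetramer, had 175 to 317 CPM with ionomycin (median 236), 177 to 338 CPM with TGFb (median 219) and 260.0 to 723 CPM with DMSO (median 426). It was lower than DMSO with both treatments, by −0.84 ± 0.18 for ionomycin and −0.89 ± 0.18 for TGFb (SE, adjusted p 0.00159 and 0.000423), where Anxa2 itself was not called. Both comparisons share the DMSO libraries, among which the short-transcript ones were highest in their line (606 against 329 CPM in PD454, 723 against 523 CPM in PD883). Without the 4 such libraries the ionomycin difference was −0.55 (adjusted p = 0.00754). S100a11, a partner of annexin A1, was lower with ionomycin (−0.74 ± 0.20, adjusted p = 0.00916) and higher with TGFb (0.57 ± 0.20, adjusted p = 0.0242). Without the short-transcript libraries its ionomycin call was lost (−0.39, adjusted p = 0.104), and without PD7591 its TGFb call was lost (0.36, adjusted p = 0.328), as it was without library 18 of TGFb in PD454 or library 2 of DMSO in PD7591 (adjusted p 0.0541 and 0.0554). A processed pseudogene, S100a11-ps, is annotated, so its counts are uncertain. The list thus gave 2 of 5 called with ionomycin, both lower, and 2 of 5 with TGFb, 1 in each direction, where 33.3% and 50.7% of all genes were called.

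In the plasminogen system, which annexin A2 with S100a10 assembles at the cell surface, 6 genes were tested. Plaur, the urokinase receptor, averaged 155 ± 44.5 CPM with ionomycin, 149 ± 35.7 CPM with TGFb and 57.1 ± 33.4 CPM with DMSO (SD, n = 3 lines). It was higher with both treatments (1.52 ± 0.23 and 1.51 ± 0.24, SE, adjusted p 8.85e-05 and 3.16e-05). Plat, tissue plasminogen activator, was higher with ionomycin (1.27 ± 0.16, adjusted p = 1.30e-05). Plau, urokinase, was higher with TGFb, at 141 ± 80.8 CPM against 8.91 ± 1.08 CPM with DMSO (3.89 ± 0.27, adjusted p = 1.17e-09), and the plasminogen receptor Plgrkt lower (−0.59 ± 0.13, adjusted p = 0.000799). Plg, plasminogen, had 0 counts in the ionomycin libraries and 63 counts in the 6 DMSO libraries. It reached 10 counts in 2 DMSO libraries and 1 TGFb library alone, so it passed the filter on low counts through groups where it was higher, and its test is not used. Apart from Plg, 2 genes were higher and 0 lower with ionomycin, against 17.2% and 16.1% of all genes. With TGFb 3 were higher and 1 lower, against 24.3% and 26.5%. Eno1, whose sequence has a near-identical copy in the mouse genome, had at most 11 counts and was not tested.

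The formyl peptide receptors, which the annexin A1 tail engages, were near or at 0. Fpr1 had at most 16 counts in a library, Fpr2 at most 2 and Fpr3, Fpr-rs3 and Fpr-rs4 had 0, so none was tested. Of the phospholipase A2 genes Pla2g4a, the cytosolic enzyme, was higher with TGFb, at 85.6 ± 13.5 CPM against 28.0 ± 9.65 CPM with DMSO (1.63 ± 0.16, adjusted p = 7.43e-08). Pla2g6 was lower with TGFb (−0.53 ± 0.16, adjusted p = 0.0108), a call lost without PD883 (−0.19, adjusted p = 0.229). Of these 2 tested genes, 0 were called with ionomycin in the reported fit and 1 had an unadjusted p under 0.05.

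Of 17 tested genes of membrane repair, in which annexins join dysferlin, calpains and ESCRT proteins at wounds, 6 were higher and 0 lower with ionomycin, against 17.2% and 16.1% of all genes. Dysf is among the 6, but its test is not used, as described below. With TGFb 3 were higher and 3 lower, against 24.3% and 26.5% of all genes. The ionomycin count was 3 without library 14 of DMSO in PD454 alone, without the 4 short-transcript libraries or with no line term, 2 without PD454 or without PD7591, and 0 with duplicates summed. Cast, the calpain inhibitor calpastatin, was higher with both (0.47 ± 0.10 and 0.63 ± 0.10, SE, adjusted p 0.00113 and 2.28e-05). Its ionomycin call was lost in 2 of 14 other settings. Dysf, dysferlin, was low, with 110 counts in all ionomycin libraries and 26 in all DMSO libraries (2.14 ± 0.57, and 1.08 without PD7591). It reached 10 counts in 4 ionomycin libraries and 1 DMSO library. Dysf thus passed the filter on low counts through groups where it was higher, and its ionomycin test is not used. Myof, myoferlin, was higher with ionomycin (0.41 ± 0.14, adjusted p = 0.0265). That call was lost in 5 of 14 other settings and in 5 of the 18 fits that left out a library. Those left out library 9 of ionomycin in PD883, library 14 of DMSO in PD454, either DMSO library of PD7591 or library 8 of DMSO in PD883, with adjusted p from 0.0509 to 0.0771. With TGFb, Capn2, a calpain subunit, was higher (0.45 ± 0.08, adjusted p = 0.000222). Chmp4c, an ESCRT-III subunit, and Ahnak, a scaffold that binds annexin A2 with S100a10, were lower (−1.30 ± 0.14 and −1.02 ± 0.25, adjusted p 3.28e-07 and 0.00268). Dysf and Myof were not called with TGFb (1.11 and −0.25, adjusted p 0.122 and 0.136). Pdcd6, the calcium sensor ALG-2 that binds annexins A7 and A11, was not called with either treatment (−0.06 and 0.19, adjusted p 0.705 and 0.134).

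Of 14 tested scramblases and flippases, which set how much phosphatidylserine annexins can reach outside the cell, 3 were higher and 3 lower with ionomycin, against 17.2% and 16.1% of all genes. These 6 calls were 3 without any single ionomycin or DMSO library of PD7591 or without PD883. They were 2 without PD7591, with summed duplicates or with no filter on low counts, and 1 with no line term. With TGFb 3 were higher and 9 lower, against 24.3% and 26.5% of all genes, with Atp8b1 among the 9 by a test that is not used. Atp8b1, a flippase of the apical membrane, averaged 19.7 ± 11.7 CPM with ionomycin, 0.0444 ± 0.0289 CPM with TGFb and 1.46 ± 1.14 CPM with DMSO (SD, n = 3 lines). Its log2 differences were 3.84 ± 0.33 for ionomycin (SE, adjusted p = 1.77e-07) and −4.81 ± 0.58 for TGFb (SE). The TGFb libraries held 6 counts in all. Atp8b1 thus passed the filter on low counts through groups where it was higher, and its TGFb test is not used. With ionomycin the scramblase family member Plscr2 was lower (−1.003 ± 0.17, adjusted p = 0.000251). Tmem30a, the flippase subunit CDC50A, was higher (0.26 ± 0.08, adjusted p = 0.0158), a call lost in 6 of 14 other settings (adjusted p 0.0570 to 0.174). With TGFb the flippase Atp8a1 was lower (−1.88 ± 0.19, adjusted p = 1.18e-07), and Plscr3 and the flippase Atp8b2 were higher (1.37 ± 0.13 and 0.74 ± 0.15, adjusted p 5.66e-08 and 0.000399). Ano6, the calcium-activated scramblase TMEM16F, averaged 499 ± 125 CPM in ionomycin libraries, against 489 ± 165 CPM in DMSO libraries (0.04 ± 0.19, adjusted p = 0.902). It was lower with TGFb (−0.58 ± 0.19, adjusted p = 0.0185), but −0.25 without PD883 (adjusted p = 0.278). That call was also lost without either TGFb library or library 7 of DMSO in PD883 (adjusted p 0.0578 to 0.0639).

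**Figure D5:**
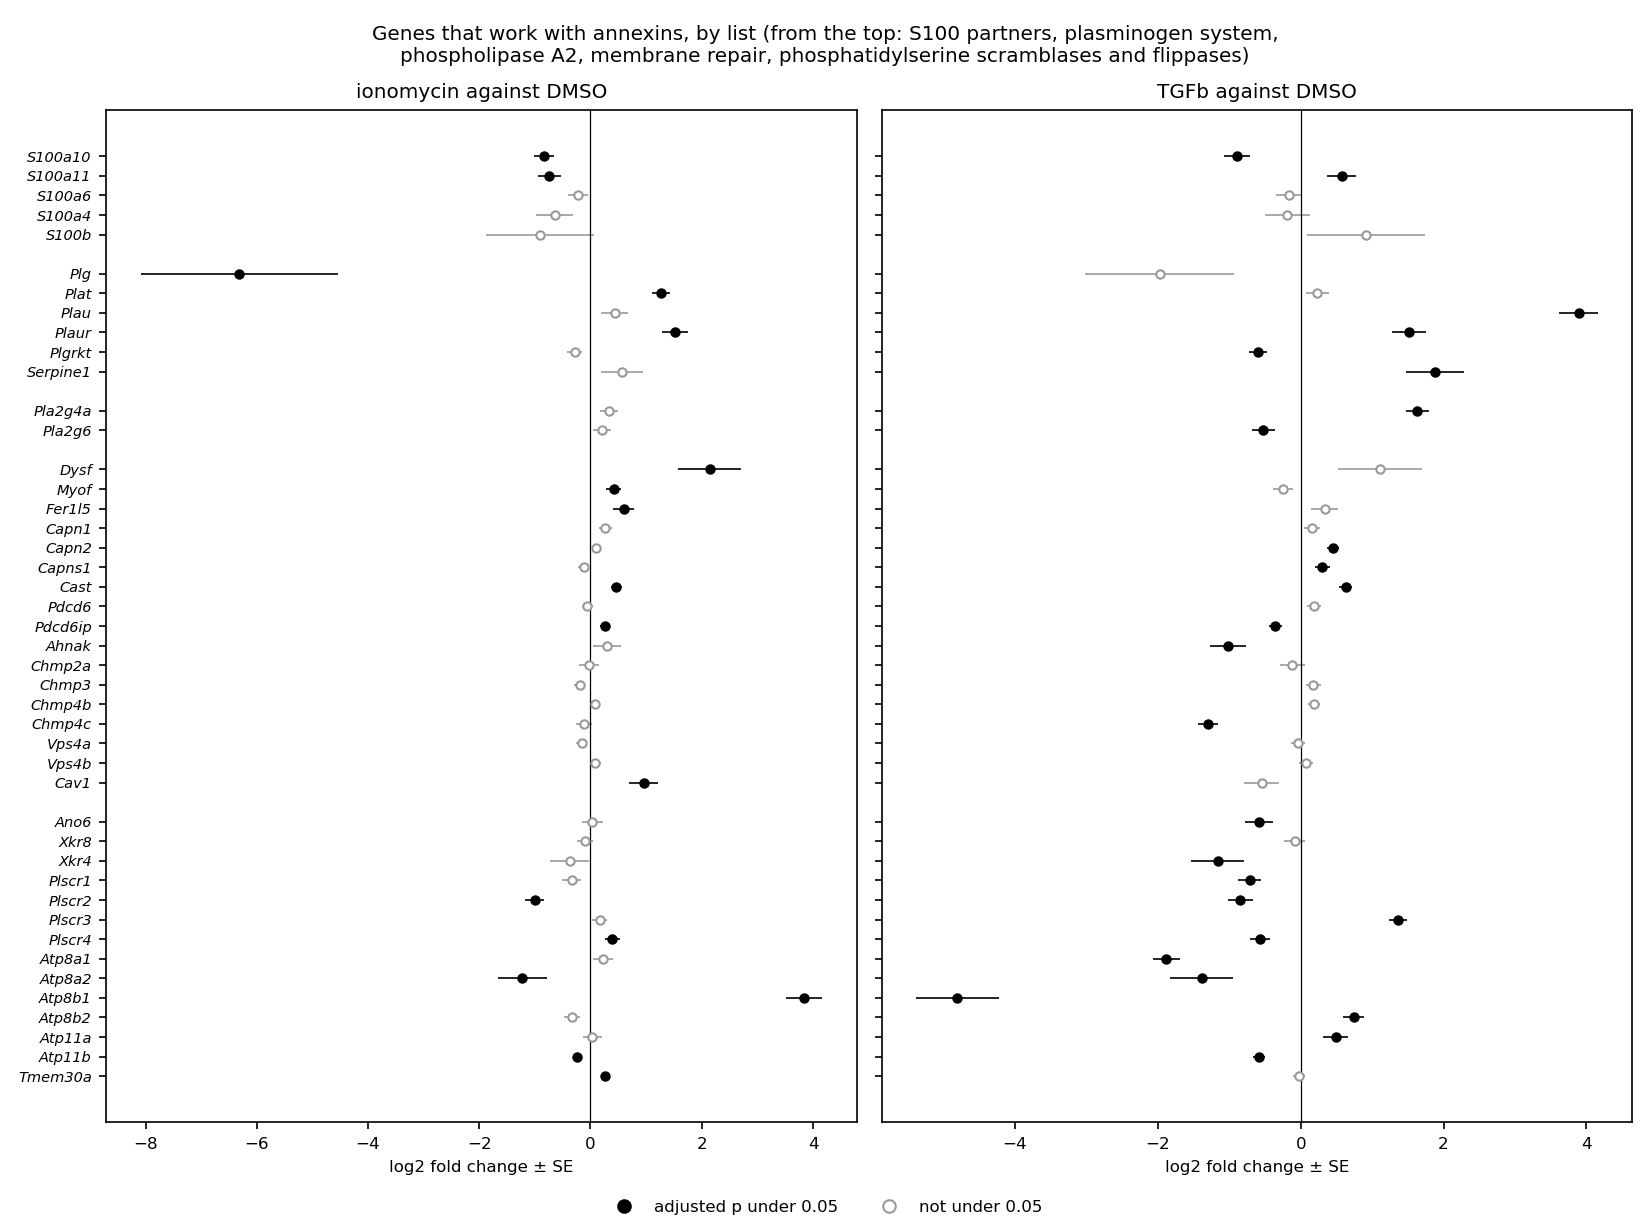
Log2 differences ± SE of genes that work with annexins, for ionomycin against DMSO and TGFb against DMSO, by list from the top. Filled points have an adjusted p under 0.05, and the point of Plg, at 0 counts with ionomycin, is a fitted value whose test is not used. The tests of Dysf with ionomycin and of Atp8b1 with TGFb are not used either. Plaur is higher with both treatments (1.52 and 1.51), Plau with TGFb (3.89), and Atp8b1 lies on opposite sides (3.84 and −4.81).

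Genes whose levels ran most like those of a member were found by Pearson's r of log2 CPM over the 18 libraries. The libraries share their treatments and lines, so these values describe likeness over 9 groups and carry no test. Anxa4 ran closest to Efemp1 (r = 0.990), Tspan8 (0.987) and Zbtb16 (0.986). Anxa10 ran closest to Grhl1 (r = 0.981), Reep6 (0.961) and Fam188a (0.958). For Anxa8 they were Igsf23 (r = 0.936), Hapln4 (0.916) and Gsn (0.915), and for Anxa5 Ube2q1 (r = 0.960), Pdlim4 (0.959) and Lgals1 (0.946). Anxa11 ran closest to Rab39b (r = 0.955), Gcnt1 (0.954) and Atp8b1 (0.952), the flippase described above.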

How the data were processed

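RNA sequencing counts were analysed in 18 libraries of 3 mouse carcinoma lines and 3 treatments, 2 libraries in each group. The authors deposited raw read counts per gene, made with CASAVA, Trimmomatic 0.32, STAR and featureCounts on mm10, per the submitters' processing notes, which give no strand mode. RNA was isolated with either of 2 column kits, and which library used which is not given in the sources used here.

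All tests used edgeR 4.0.16 in R 4.3.3: TMM factors, its filter on low counts over the 9 groups, quasi-likelihood F tests on all 18 libraries and Benjamini-Hochberg adjustment over 13827 genes, called under 0.05. Treatment contrasts had line as an additive term, and tests within and between lines had a mean for each group. SE is the size of the log2 difference divided by the square root of F. Levels per kilobase used exon lengths of GENCODE vM21, and correlations log2 CPM with a prior count of 2. The scripts were tested on simulated data. Alternatives were DESeq2 1.42.0 and limma-voom (limma 3.58.1), other scalings, filters and designs, and leaving out each library or line. An offset for transcript length was added after seeing the data. Genes named are all members, the remaining annexins, partner genes of lists on annexin function, and the 3 genes most like a member. A gene of these lists is not reported here. Members and lists were chosen with earlier results of these data known. Libraries held 17591005 to 37894692 counts, and duplicates correlated at 0.981 to 0.993 (log2 CPM), differing by more than sampling noise.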

Additional observations from a re-analysis of the deposited data

Results flagged for a closer look

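The response of Anxa8 to ionomycin differed between the lines in a joint test of the 3 within-line differences (edgeR's quasi-likelihood F test, adjusted p = 0.000451). The log2 difference was 0.76 in PD454, 3.07 in PD7591 and 0.93 in PD883, positive in all 3 lines. PD7591 had the lowest DMSO level, with 37.4 and 31.7 CPM, and with ionomycin it had 294 and 285 CPM, below the 322 to 455 CPM of the other lines.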

How the results depend on the processing

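No paired analysis was possible because the library numbers in the titles differ between all groups, so single libraries could not be paired. Line, as a term of the treatment fits, already compared treatments within lines. With no line term, ionomycin against DMSO called 2152 genes and 3 annexins, against 4599 and 5 in the reported fit. Summed duplicates called 1840 genes for ionomycin, and 4581 for TGFb against 7015 as reported. With a mean per group, 9 annexins and 5689 genes (41.1%) were called for ionomycin. The joint test between lines called 1050 genes and 4 annexins for ionomycin and 1391 genes and 3 annexins for TGFb with no filter on low counts, and 1284 and 6, and 1486 and 5, with DESeq2. Scaling by library totals gave 39.3% higher among ionomycin calls, against 51.6% with TMM. It gave 45.1% against 55.6% within PD454 and 39.0% against 51.4% within PD883. Within PD883 it moved the median log2 difference of all genes to −0.129.

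Leaving out each library in turn, ionomycin called 1010 to 3143 genes within PD454, 1114 to 2723 genes and 4 to 7 annexins within PD7591, and 1903 to 3254 genes and 4 to 6 annexins within PD883. TGFb called 3388 to 5494 genes within PD7591. The joint test called 106 to 675 genes and 1 to 3 annexins for ionomycin, and 403 to 1069 genes and 0 to 3 annexins for TGFb. PD454 against PD7591 gave 1376 to 3168 genes and 4 to 7 annexins, PD454 against PD883 2782 to 5027 genes and 5 to 8 annexins, and PD7591 against PD883 2418 to 4897 genes and 4 to 6 annexins.

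Sign changes were limited to differences that were not called. Anxa2 with TGFb was −0.0092 with no line term, −0.14 without PD7591, −0.044 with the length offset and −0.0082 to 0.12 without single libraries. With ionomycin, Pdcd6 was 0.077 without the short-transcript libraries, 0.069 with the length offset and −0.086 to 0.0088 without single libraries. Ano6 was −0.042 with library totals, −0.037 without PD454, −0.12 without the short-transcript libraries and −0.055 to 0.23 without single libraries. Library totals gave −0.035 for Anxa3 and −0.0035 for Anxa4 (ionomycin, PD454), −0.0098 for Anxa2 (TGFb, PD454), −0.048 for Anxa4 and −0.041 for Anxa5 (ionomycin, PD7591) and −0.0029 for Anxa1 (TGFb, PD7591). Without single libraries, ionomycin in PD454 gave −0.058 to 0.21 for Anxa3, −0.0033 to 0.21 for Anxa4 and −0.35 to 0.16 for Anxa5. In PD7591 it gave −0.14 to 0.15 for Anxa4 and −0.19 to 0.19 for Anxa5, and in PD883 −0.065 to 0.042 for Anxa2. TGFb gave −0.16 to 0.25 for Anxa2 and −0.19 to 0.22 for Anxa8 in PD454, and −0.0023 to 0.11 for Anxa1 in PD7591. Between lines, Anxa3 was −0.26 to 0.0065 (PD454 against PD7591) and Anxa1 −0.27 to 0.43 (PD454 against PD883). PD7591 against PD883 gave −0.13 to 0.0056 for Anxa4, −0.47 to 0.034 for Anxa6, −1.21 to 0.93 for Anxa10 and −0.14 to 0.056 for Anxa11. Of the gene values under all alternatives, 4379 kept direction and side of the threshold, 118 lost a call, 98 gained one and 45 changed sign. The causes of these changes were not tested. Anxa10 in TGFb libraries and in DMSO libraries of PD7591 and PD883 is limited by depth, with 0 to 17 counts.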
